A study of Homo sapiens with 2 samples.

Results

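Zinc transporter and metallothionein genes were examined in the enzalutamide-resistant prostate cancer cell line C4-2B MDVR after treatment with Indocin. The members were the gene symbols of the SLC30A and SLC39A families, the metallothionein genes MT1 (any letter), MT2A, MT3 and MT4, and MTF1, taken by name from the deposited expression values and not by any measured value. The rule took 37 of 25268 symbols: 14 importers of the SLC39A family, 10 exporters of the SLC30A family, 12 metallothioneins and the regulator MTF1. C4-2B MDVR is a castration-resistant line maintained with 20 µM of the antiandrogen enzalutamide, which both groups received. Cells were given the vehicle DMSO or 20 µM Indocin (indomethacin, a cyclooxygenase inhibitor) for 3 days, and 1 RNA-seq library was made from each. Each group thus had 1 library, so the differences below are between these 2 libraries and carry no test, p-value or error.

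Zinc is held at very low free concentrations in the cytosol by a division of labour. SLC39A proteins (ZIP transporters) move zinc into the cytosol from outside the cell or from organelles, and SLC30A proteins (ZnT transporters) move it out of the cytosol, across the plasma membrane or into vesicles, the Golgi and other compartments. Metallothioneins are small cysteine-rich proteins that bind zinc and copper, and MTF1 is the zinc-sensing transcription factor that turns on metallothionein genes and SLC30A1 through metal response elements in their promoters. Normal prostate epithelium accumulates unusually high zinc, and loss of zinc is a known feature of prostate cancer.

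Values were FPKM (fragment numbers divided by transcript length and by library size), which allow levels to be compared between genes. Log2 ratios compare FPKM + 1 with Indocin to FPKM + 1 with DMSO, a scale on which the fold of low genes comes out too small. The absolute depth was unknown. Relative depth was read from 1335 genes above 0 in both libraries whose mean was under 0.05 FPKM. For 45.5% of them the quotient of Indocin and DMSO values came within 1% of 1.014 times a quotient of small whole numbers (2.55% at the median factor tried), which puts the worth of a single fragment at nearly the same FPKM on each side. The prostate luminal markers KLK3, KLK2, FOLH1, HOXB13, KRT8 and KRT18 summed to 1291 FPKM with DMSO and 1100.3 FPKM with Indocin. Their median log2 ratio was -0.30, with 5 below 0 and FOLH1 above it (0.18). The basal markers KRT5 and TP63 summed to 0 and 0.0342 FPKM, and the endothelial markers PECAM1 and CDH5 to 0.00598 and 0.00602 FPKM. Of the stromal markers COL1A1 stood at 4.54 and 4.80 FPKM while COL1A2 and DCN were listed at 0, and of the leukocyte markers CD68 stood at 6.51 and 5.86 FPKM and PTPRC at 0 and 0.0233 FPKM.

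None of the zinc genes whose mean reached 1 FPKM differed by 1.5-fold between the libraries on the log2(FPKM + 1) scale. MT1F was just short of it, and the count of 0 became 1, MT1F, with a pseudocount of 0.1 FPKM and under each rescaling of the libraries. Of the 37 members 22 reached that mean, and their log2 ratios ran from -0.38 for SLC39A10 to 0.57 for MT1F, where 1.5-fold is 0.58. Of all 11958 genes at the same minimum, 2.19% were higher with Indocin by at least 1.5-fold and 0.744% lower by at least 1.5-fold. At these shares a count of 0 among 22 genes is near the background. The count over all genes tested also rose under the settings that brought in MT1F, from 262 to between 287 and 420. The median log2 ratio was -0.01 over the 22 members and -0.03 over all genes tested, whose quartiles were -0.15 and 0.11. Of the 22 members 12 lay between those quartiles and 10 outside them. Of the 22, 9 were above 0 and 13 below, beside 5355 above and 6603 below of all 11958 genes tested. The split of the 22 became 12 and 10 once the upper quartiles of the libraries were made equal. The median over all genes tested was then 0.01.

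**Figure D1:**
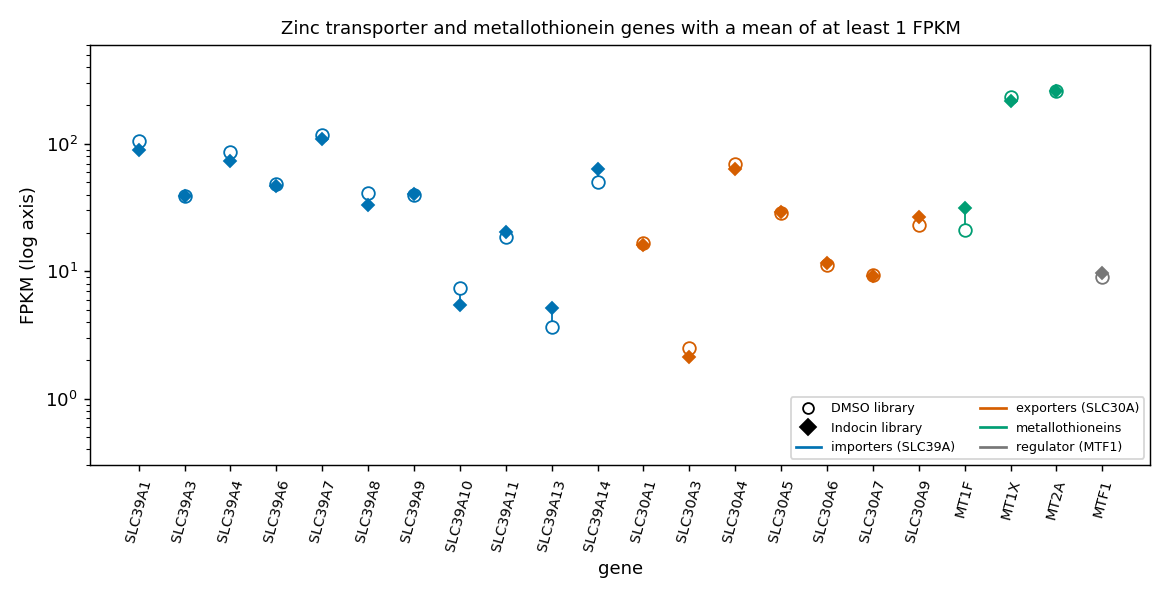
FPKM (log axis) of the 22 members whose mean over both libraries reached 1 FPKM, with open circles for DMSO and filled diamonds for Indocin, with a line joining the values of each gene. The pairs mostly overlap, and the widest gap among genes above 20 FPKM is that of MT1F (21.0 and 31.6 FPKM).

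The importers summed to 557 FPKM with DMSO and 525 FPKM with Indocin, a log2 ratio of the sums of -0.09. All 25268 symbols summed to 617510 and 583096 FPKM, a log2 ratio of -0.08. The importers were thus 0.0903% of the whole sum with DMSO and 0.0900% with Indocin. The fall in the whole sum owed part to the single gene BCYRN1. Equal sums without short RNA genes took a factor of 1.057 on the Indocin values, and 1.029 with BCYRN1 also left out. The log2 ratio of the importer sums was then -0.01 and -0.04. The most abundant was SLC39A7, which releases zinc from the endoplasmic reticulum when phosphorylated, at 118 FPKM with DMSO and 109 FPKM with Indocin (log2 ratio -0.11). SLC39A1, regarded as the main zinc uptake transporter of prostate epithelium, followed at 105 and 88.7 FPKM (-0.24). SLC39A4, the intestinal zinc transporter lost in acrodermatitis enteropathica, stood at 86.3 and 73.9 FPKM (-0.22). These 3 importers were all lower in the Indocin library, at FPKM ratios from 0.847 to 0.925, and stayed lower under each scaling tried.

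Next in level came SLC39A14, which carries zinc, iron and manganese, at 49.9 FPKM with DMSO and 63.1 FPKM with Indocin (0.33). Its log2 ratio lay above that of 93.5% of all genes tested, and its share of the importer sum was 8.95% with DMSO and 12.0% with Indocin. SLC39A8, a related carrier of zinc and manganese, stood at 41.5 and 33.1 FPKM (-0.32), a ratio with 7.74% of tested genes below it. The ratios of these importers of zinc and manganese had opposite signs, each short of 1.5-fold.

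SLC39A6, the estrogen-regulated importer also called LIV-1, stood at 48.2 FPKM with DMSO and 46.6 FPKM with Indocin (-0.05). SLC39A10, with which it forms a complex, was far less abundant, at 7.41 and 5.46 FPKM (-0.38), and 4.50% of tested genes had a lower ratio. SLC39A10 was thereby the lowest of the 22 members. With a pseudocount of 5 FPKM its ratio was -0.25 and with 0.1 FPKM it was -0.43. SLC39A3, a plasma membrane importer, stood at 39.0 and 38.8 FPKM (-0.01). Of the 7 plasma membrane importers measured, 6 were below 0 and SLC39A14 was above it, with a median of -0.22. Of all 11958 genes tested 6603 were below 0, with a median of -0.03. With upper quartiles made equal 5 of the 7 importers were below 0, and with the same sum, short RNA genes left out, 4 were. The median over all genes tested was 0.01 and 0.05 under these 2 scalings.

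The 4 importers that act mainly on organelles of the secretory pathway had a median of 0.07. Apart from SLC39A7, these were SLC39A9, a Golgi transporter, at 39.5 FPKM with DMSO and 40.1 FPKM with Indocin (0.02), SLC39A11 at 18.6 and 20.3 FPKM (0.12), and SLC39A13. SLC39A13, which supplies zinc for connective tissue growth and is mutated in a form of Ehlers-Danlos syndrome, stood at 3.64 and 5.14 FPKM (0.40), above 95.4% of tested genes. Among the 11 importers at the minimum, SLC39A13 had the highest ratio and the lowest level. Its ratio was 0.49 with a pseudocount of 0.1 FPKM and 0.23 with 5 FPKM. Summed, the 4 secretory pathway importers were lower with Indocin, at 180.0 FPKM with DMSO and 175 FPKM with Indocin. The log2 ratio of these sums was -0.04, beside -0.11 for the 10 plasma membrane importers. The importers SLC39A2, SLC39A5 and SLC39A12, 3 in all, were under the minimum: SLC39A2 was listed at 0.258 and 0.232 FPKM, SLC39A5 at 0 and 0.0526 FPKM, and SLC39A12 at 0 in both libraries.

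The exporters measured had log2 ratios from -0.17 to 0.19, against -0.38 to 0.40 for the importers measured. They summed to 161 FPKM with DMSO and 159 FPKM with Indocin, with a log2 ratio of the sums of -0.02. SLC30A4, which loads zinc into vesicles, alone gave 42.8% of the exporter sum with DMSO and 40.0% with Indocin, at 69.0 and 63.7 FPKM (-0.11). SLC30A1, the plasma membrane exporter and a classical MTF1 target, stood at 16.8 and 16.0 FPKM (-0.06), close to no difference.

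The transporters that supply zinc to enzymes of the early secretory pathway were nearly equal in both libraries. SLC30A5 stood at 28.6 FPKM with DMSO and 29.3 FPKM with Indocin (0.03), and its partner SLC30A6, with which it forms a heterodimer, at 11.3 and 11.6 FPKM (0.04). SLC30A7 stood at 9.30 and 9.22 FPKM (-0.01). Among the 7 exporters at the minimum, the mitochondrial transporter SLC30A9 had the highest ratio, at 23.1 and 26.5 FPKM (0.19). SLC30A3, known for filling synaptic vesicles with zinc, had the lowest, at 2.52 and 2.13 FPKM (-0.17). The 7 exporters measured had a median of -0.01 against -0.05 for the 11 importers measured, and -0.03 for all genes tested.

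Under the minimum were 3 exporters. SLC30A2, a vesicular transporter known from milk zinc secretion, was listed at 0.425 FPKM with DMSO and 0.646 FPKM with Indocin. SLC30A10, which exports manganese, was listed at 0.0573 and 0.0232 FPKM, and SLC30A8, the transporter of insulin granules, at 0.00557 and 0.00569 FPKM. At such levels a difference cannot be told from counting error, whose size the files do not give.

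**Figure D2:**
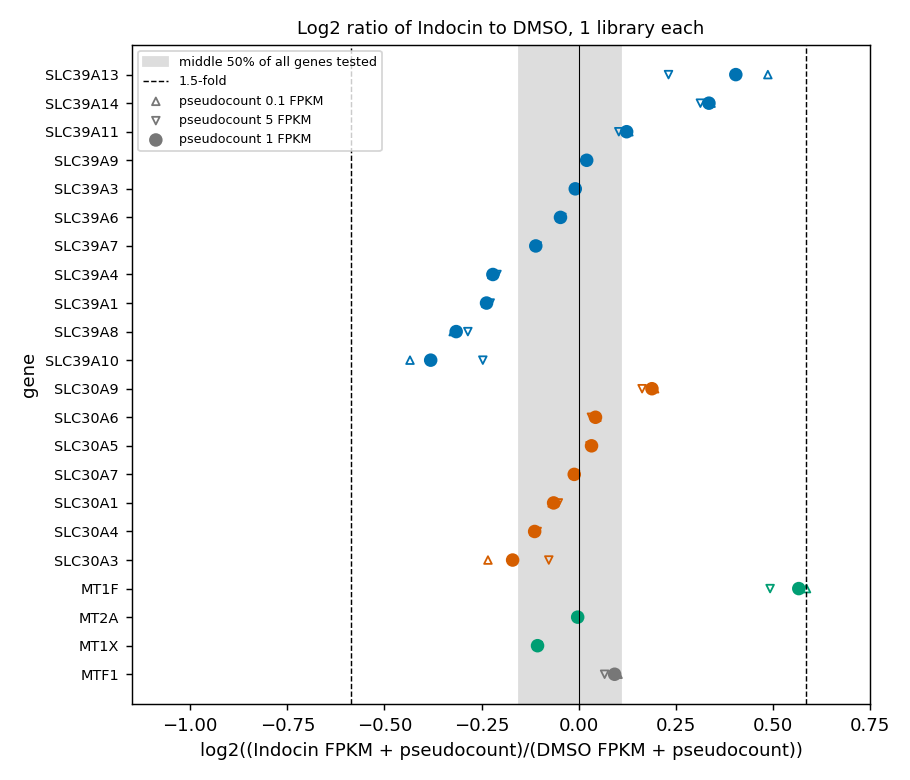
Log2 ratio of Indocin to DMSO for the 22 members whose mean reached 1 FPKM, coloured by class as blue importers, orange exporters, green metallothioneins and grey MTF1. Large points use a pseudocount of 1 FPKM and small triangles 0.1 or 5 FPKM, the grey band is the range between the quartiles of all genes tested and the dashed lines are 1.5-fold; only MT1F reaches a line, with 0.1 FPKM.

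Metallothionein transcripts summed nearly as high as those of all importers together. The sums were 517 FPKM with DMSO and 510.0 FPKM with Indocin, a log2 ratio of the sums of -0.02. MT2A stood at 261 FPKM in both libraries (0.00). MT1X stood at 234 FPKM with DMSO and 217 FPKM with Indocin (-0.11). The pair gave 95.7% of the metallothionein sum with DMSO and 93.7% with Indocin.

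MT1F was the member with the highest ratio of all 22, at 21.0 FPKM with DMSO and 31.6 FPKM with Indocin. Its log2 ratio of 0.57 lay above 97.6% of tested genes and just short of 1.5-fold. It passed 1.5-fold with a pseudocount of 0.1 FPKM (0.59) and under each rescaling of the libraries, so whether it counts as past that fold depends on these choices. MT1F was 4.06% of the metallothionein sum with DMSO and 6.20% with Indocin. MT3, the metallothionein known from brain, was listed at 1.28 and 0.458 FPKM (-0.65), with a mean of 0.870 FPKM and so under the minimum. Of 18328 genes above 0 in at least 1 library, 0.551% were at least 1.5-fold lower on this scale. MT3 was the only such gene among the 28 members in that set.

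The other 8 metallothionein symbols, MT1A, MT1B, MT1E, MT1G, MT1H, MT1L, MT1M and MT4, were listed at 0 in both libraries. MT1L is a transcribed pseudogene in the RefSeq table. All of these genes lie in 1 cluster on chromosome 16, in the order MT4, MT3, MT2A, MT1L, MT1E, MT1M, MT1A, MT1B, MT1F, MT1G, MT1H and MT1X with other pseudogenes left out, so that genes at 0 stood between MT2A and MT1X. A 0 can be a failed estimate and was read as a listed value, not as absence. Metallothionein genes are short and alike, and reads that match several of them may have been assigned to 1. In GENCODE 29, an annotation of another build than the authors used, exact windows of 50 bases shared with another gene made up 3.59% of the longest coding transcript of MT1F, 4.88% of that of MT2A, 10.6% of that of MT1E, 14.3% of that of MT1G and 21.8% of that of MT1B. For MT1X the share was 55.8%, all of it found in the single annotated gene AC026461.1. Among the transporters SLC39A1 shared 71.3% of its windows with AL358472.7 and SLC39A3 12.7% with AC006538.2. Whether AC026461.1, AL358472.7 and AC006538.2 overlap the genes they share windows with was not checked. The part of shared reads in the FPKM values, those at 0 included, was not tested.

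Promoter sequences are shown for the metallothioneins with the highest values, MT2A and MT1X, for MT1H as one that was listed at 0, whatever the reason for that 0, and for SLC30A1 as the transporter MTF1 is known to control. Each run is the 250 bases before the gene's start, 5′ to 3′ on the gene's strand, from RefSeq (GRCh38.p14), with matches to the metal response element cores TGCACNC or TGCGCNC on either strand in capitals. No match overlapped another in these 4 windows. The windows are chr16:56608334-56608583 on the plus strand for MT2A, chr16:56682220-56682469 on the plus strand for MT1X, chr16:56669564-56669813 on the plus strand for MT1H and chr1:211579162-211579411 on the minus strand for SLC30A1.
MT2A: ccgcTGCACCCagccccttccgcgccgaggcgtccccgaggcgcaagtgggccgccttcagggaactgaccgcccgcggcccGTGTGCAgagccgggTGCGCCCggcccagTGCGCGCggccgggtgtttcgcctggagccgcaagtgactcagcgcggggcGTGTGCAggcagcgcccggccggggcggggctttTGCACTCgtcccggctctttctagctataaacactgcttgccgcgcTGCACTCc
MT1X: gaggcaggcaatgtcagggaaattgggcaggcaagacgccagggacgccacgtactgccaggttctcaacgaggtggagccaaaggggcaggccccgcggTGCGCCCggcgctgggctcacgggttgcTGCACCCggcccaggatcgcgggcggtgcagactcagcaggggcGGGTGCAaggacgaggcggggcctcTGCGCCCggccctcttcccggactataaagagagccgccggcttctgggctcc
MT1H: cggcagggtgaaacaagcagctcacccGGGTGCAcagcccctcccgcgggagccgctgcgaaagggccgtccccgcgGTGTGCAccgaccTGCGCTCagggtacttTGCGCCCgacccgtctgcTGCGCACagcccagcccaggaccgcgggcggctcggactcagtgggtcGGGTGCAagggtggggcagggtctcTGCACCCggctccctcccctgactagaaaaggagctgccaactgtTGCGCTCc
SLC30A1: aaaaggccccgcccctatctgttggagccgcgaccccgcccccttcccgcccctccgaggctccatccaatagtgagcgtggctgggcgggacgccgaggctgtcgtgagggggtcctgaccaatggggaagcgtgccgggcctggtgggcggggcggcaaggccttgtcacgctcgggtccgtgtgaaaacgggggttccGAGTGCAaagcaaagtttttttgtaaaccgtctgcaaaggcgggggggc

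MT2A held 7 matches, MT1X 4, MT1H 8 and SLC30A1 1. MT1H, listed at 0 in both libraries, thus did not hold fewer matches than MT2A. Its match nearest the start lay at bases -8 to -2, as did that of MT2A, and both MT1H and MT1X had matches at -78 to -72 and at -53 to -47, counted back from the start. Of all 35116 promoter windows of the same length, 24.8% held at least 1 match and 0.370% held 4 or more. A match is a run of letters and was not shown to bind MTF1.

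Windows were found for 27 of the 37 members, 36 windows in all. MT1A, MT1E, MT1F, MT1G, MT1L, MT1M, MT3, SLC30A8, SLC39A4 and SLC39A14 had no entry. All 5 metallothionein windows held 3 or more matches, against at most 1 in the 19 importer windows and at most 3, in SLC30A2, in the 11 exporter windows. The share of all windows with 3 or more was not computed. At least 1 match was in 5 of the importer windows and 6 of the exporter windows, beside 24.8% of all windows. The MTF1 window held none. The ATF4/CEBP core TGATGNAA, searched on both strands, was in none of the 36 windows and in 3.14% of all windows.

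**Figure D3:**
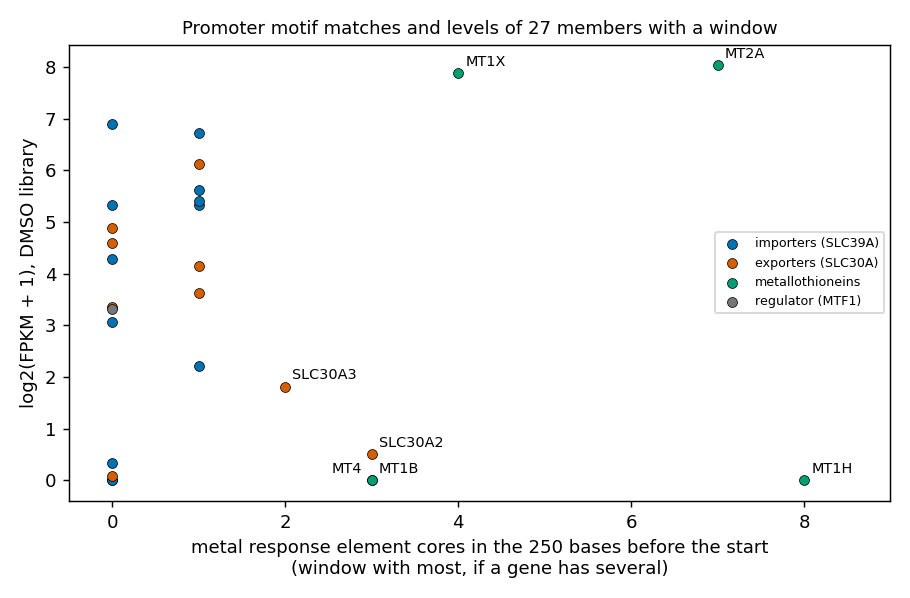
Number of metal response element cores in the 250 bases before the start (horizontal axis, the window with most where a gene has several) against log2(FPKM + 1) in the DMSO library (vertical axis) for the 27 members with a window. MT1H with 8 matches, and MT1B and MT4 with 3 each (their points coincide), lie at 0, while MT2A with 7 and MT1X with 4 lie highest.

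MTF1, the transcription factor that reads cytosolic zinc, stood at 8.99 FPKM with DMSO and 9.65 FPKM with Indocin (0.09). Among its known targets, MT2A had a ratio of 0.00, MT1X of -0.11, SLC30A1 of -0.06 and MT1F of 0.57.

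**Figure D4:**
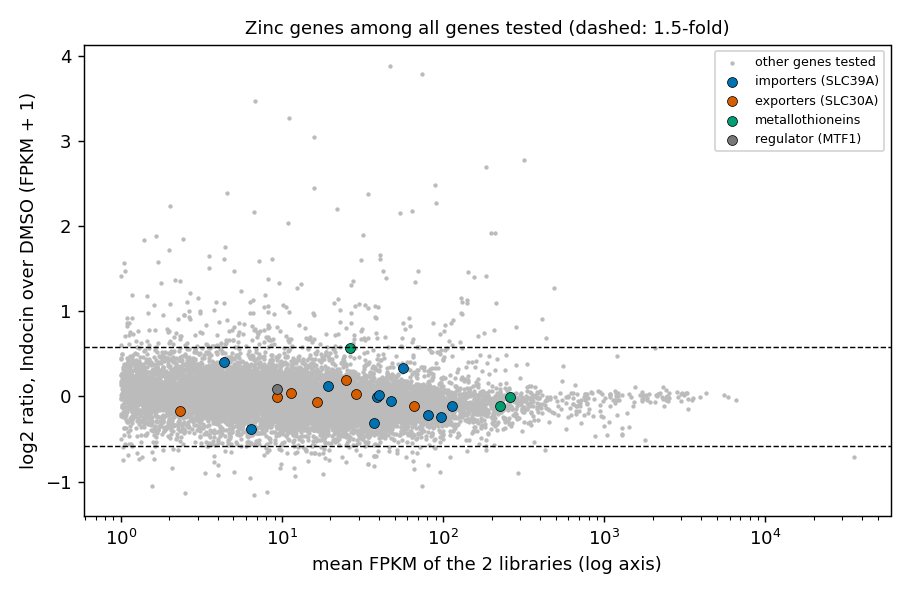
Mean FPKM of the 2 libraries (horizontal, log axis) against the log2 ratio of Indocin to DMSO (vertical axis) for all 11958 genes tested, with the 22 members in colour and dashed lines at 1.5-fold. The members lie between -0.38 and 0.57, inside the dashed lines, with 12 of them between the quartiles of all genes tested and 10 outside.

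Genes of related lists were read beside the members. Among 10 measured genes of zinc handling outside both transporter families none differed by 1.5-fold, and the median was -0.03. The furthest were RREB1, a zinc finger factor reported to repress SLC39A1, at 15.6 FPKM with DMSO and 13.6 FPKM with Indocin (-0.19), CBWD3 (-0.19), a member of a family of near-identical copies that can share reads, and KEAP1 (-0.13). The subunits of casein kinase 2, which opens SLC39A7 by phosphorylation, were nearly equal, with CSNK2A1 at 75.7 and 75.1 FPKM (-0.01) and CSNK2B at 135 and 131 FPKM (-0.04). CSNK2A2 had a ratio of 0.11. These subunits were named after their values were seen.

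Among the genes of copper handling, SLC31A1, the high-affinity copper importer, stood at 26.4 FPKM with DMSO and 50.8 FPKM with Indocin (0.92) and was the only 1 of 14 measured copper genes past 1.5-fold, where 2.19% of all genes tested were as much higher and 0.744% as much lower. SCO2, a copper chaperone of cytochrome oxidase assembly, stood at 58.5 and 40.6 FPKM (-0.52), and COMMD1, a regulator of copper export, at 35.4 and 45.5 FPKM (0.35). The median of the copper list was 0.01, with 7 genes above 0 and 7 below. The copper exporters ATP7A (0.24) and ATP7B (0.04), named after their values were seen, were under 1.5-fold.

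Of 6 genes of iron and manganese transport none passed 1.5-fold. The transferrin receptor TFRC stood at 129 FPKM with DMSO and 102 FPKM with Indocin (-0.34), the divalent metal transporter SLC11A2 at 24.8 and 28.3 FPKM (0.18), and the Golgi calcium and manganese pump ATP2C1 at 30.7 and 33.6 FPKM (0.12). Among 8 measured genes of the zinc and citrate metabolism of prostate none passed 1.5-fold either, and the median was -0.12. SLC1A3, an aspartate and glutamate transporter, stood at 2.15 and 1.11 FPKM (-0.58), just short of 1.5-fold on this scale, IDH3A at 37.8 and 31.3 FPKM (-0.26) and ANKH, a citrate and pyrophosphate exporter, at 7.36 and 8.82 FPKM (0.23).

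Of 4 measured zinc-dependent ectoenzymes and carbonic anhydrases, CA12, a membrane carbonic anhydrase, was at least 1.5-fold lower, as were 0.744% of all genes tested, at 35.2 FPKM with DMSO and 22.4 FPKM with Indocin (-0.63). CA9 had a ratio of -0.10 and MME, the zinc peptidase neprilysin, of -0.05. A list of genes that respond to metals and to other stress had 10 measured members, of which SLC7A11 (3.05), HMOX1 (0.69) and GCLM (0.63), 3 in all, were higher by at least 1.5-fold, and 1, HSPA1B (-0.71), was as much lower, beside 2.19% and 0.744% of all genes tested. HSPA1B can share reads with a near-identical neighbour. Regulators other than MTF1 act on these genes, and a link to MTF1 was not tested. The list median was -0.04. The measured metallothioneins had ratios of 0.57 for MT1F, 0.00 for MT2A and -0.11 for MT1X.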

How the data were processed

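RNA was sequenced from 2 cultures of C4-2B MDVR cells, 1 per group, as strand-specific mRNA libraries, per the labels' protocols. The authors deposited FPKM per gene symbol, per the file headers, and every one of the 25268 symbols had the status OK. Builds GRCh37 and hg19 appear in the submitters' processing notes, as do the tools Cuffnorm, StringTie, Cufflinks, TopHat and bcl2fastq. What each tool did, its version, the gene annotation and the use of strand in counting: not given in the sources used here.

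Log2 ratios were computed with Python 3.11.15 and pandas 2.3.3 with a pseudocount of 1 FPKM, for genes whose mean reached 1 FPKM, leaving out 2069 symbols of short RNA genes. Genes were counted at 1.5-fold. FPKM are not counts, so no count test was run. The code was tested on simulated data. All members at the minimum were named, and from each related list those past 1.5-fold and the 3 furthest. A gene of the prostate list is not reported here. Members, lists and rules were chosen with earlier results of these data known. Sites of action of the transporters were assigned from general knowledge. Motifs were searched in RefSeq promoter windows (GRCh38.p14), and transcripts compared in GENCODE 29; neither is the authors' build, so no position was joined to the expression values except by gene symbol. Alternatives covered pseudocounts, filters, scalings, the fold and the summing of metallothioneins.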

Additional observations from a re-analysis of the deposited data

How the results depend on the processing

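The count of members at least 1.5-fold higher went from 0 to 1, MT1F, with a pseudocount of 0.1 FPKM, with ratios centred on the median of tested genes, with the same upper quartile, and with the same sum, with or without BCYRN1 (the last added after seeing the data). Over all genes tested the counts as much higher were 262 of 11958 as reported, 420 of 11958 with that pseudocount and 287 of 11958 centred. They were 296 of 11974 with the same upper quartile, 335 of 11997 with the same sum and 301 of 11977 without BCYRN1. The count of members at least 1.5-fold lower went from 0 to 1, MT3, with no filter on low values. Of the 18328 genes then tested 101 were as much lower. Both member counts were 0 with a pseudocount of 5 FPKM, a mean of at least 5 FPKM, a 2-fold threshold or the metallothioneins summed to 1 feature.

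The importer median of -0.05 was -0.04 with a pseudocount of 5 FPKM, -0.03 with no filter, -0.08 with a mean of at least 5 FPKM, -0.02 centred, -0.01 with the same upper quartile, 0.03 with the same sum and -0.01 without BCYRN1 in that sum. The exporter median of -0.01 was 0.01 with a mean of at least 5 FPKM, 0.01 centred, 0.02 with the same upper quartile, 0.06 with the same sum and 0.03 without BCYRN1. The metallothionein median of 0.00 was -0.05 with no filter, 0.02 centred, 0.03 with the same upper quartile, 0.08 with the same sum and 0.04 without BCYRN1. Only 3 metallothioneins were measured, so apart from the setting with no filter this median was the value of MT2A. The log2 ratio of summed FPKM was, centred, -0.06 for importers, 0.01 for exporters and 0.00 for metallothioneins. With the same upper quartile these were -0.05, 0.02 and 0.01, with the same sum -0.01, 0.06 and 0.06, and without BCYRN1 -0.04, 0.02 and 0.02. MT2A, SLC30A7 and SLC39A3 changed sign under each scaling, and SLC30A1 and SLC39A6 also with the same sum. The signs of the 3 class medians and of the exporter and metallothionein sums thus depended on these settings. The median over all genes tested moved too. It went from -0.03 to 0.01 with the same upper quartile, 0.05 with the same sum and 0.01 without BCYRN1. The importer sum was below 0 under each setting, but only -0.01 with the same sum and -0.04 without BCYRN1. As reported the importer sum was -0.09, beside -0.08 for the sum over all symbols, a fall that owed part to BCYRN1. No paired analysis was possible because each group had 1 library. Depth was unknown, which limits what low members such as MT3 can show.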

Other observations

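MT1DP, a metallothionein pseudogene of the same cluster that the symbol rule did not take, was listed at 2.06 FPKM with DMSO and 2.99 FPKM with Indocin (log2 ratio 0.39). MT1JP, MT1IP and MT1HL1 were listed at 0 in both libraries. In the order of the RefSeq table, MT1DP lies before MT1CP and MT1B, which are followed by MT1F, the metallothionein with the highest ratio. These genes were looked at after the values of MT1F were seen.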
